A study of Homo sapiens with 6 samples.

Results

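Epithelial and mesenchymal state genes are here a module of 39 genes, taken by their names on the array, which holds 43317 gene names in all. The 16 epithelial members run from CDH1 to LSR and the 23 mesenchymal members from VIM to FMOD, and 52 array probes carried one of these names. All samples came from 22RV1, an established line of human prostate cancer that the labels call SPINK1 positive. They stably carried a lentiviral pLemiR vector and were grown under puromycin. Control cells carried pLemiR-RFP, which encodes a red fluorescent protein, and the other lines carried pLemiR-338-5p or pLemiR-421, each for overexpression of the microRNA (miRNA) it is named after. Each of the 6 two-colour arrays set RNA of a miRNA line in Cy5 against RNA of control cells in Cy3. The miR-338-5p group had replicates 1, 2 and 3, and the miR-421 group had replicates 1 and 2 and a sample whose label says pool. Titles of the numbered samples have a letter C before the number, which the labels do not explain. Nor do the labels say what was pooled or what promoter drove the miRNA. They also do not say whether replicates were separate cultures or derived lines, or whether 1 control culture served every array. The p-values therefore measure the spread between these samples, which may be technical. If 1 control culture served every array, that spread leaves out differences between control cultures. The arrays measured messenger RNA, so the level of the mature miRNAs is not shown here.

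Epithelial cells hold together through adherens junctions built on E-cadherin, through tight junctions and through desmosomes. In an epithelial to mesenchymal transition the transcription factors of the snail, ZEB and TWIST families bind E-box sequences in promoters of such genes and repress them, while vimentin, N-cadherin, fibronectin and other matrix genes rise. The grainyhead and OVOL factors and the ESRP splicing factors hold the epithelial program, and in prostate cancer a loss of E-cadherin or a gain of N-cadherin is often read as progression.

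The mature miRNAs are printed because every comparison turns on them, with the seed (bases 2 to 8, which pair with target messages) in capitals. Both are from RefSeq on GRCh38.p14. hsa-miR-338-5p is encoded on the minus strand at chr17:81125923-81125944 and hsa-miR-421 on the minus strand at chrX:74218392-74218414.
hsa-miR-338-5p: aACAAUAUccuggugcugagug
hsa-miR-421: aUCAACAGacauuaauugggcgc
The seeds differ, and 0 other mature human miRNAs of the RefSeq table shared either of them. Pairing with members' messages was not analysed here.

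The E-box bound by the snail and ZEB factors of this module was searched in the 250 bases before the annotated starts of the members. Sites of its other transcription factors were not searched. Of the 39 members 21 were matched to RefSeq starts. The epithelial CDH1, EPCAM, PKP3, ESRP1, ESRP2, GRHL2, OVOL1 and ST14 had no match and were not searched. They include every epithelial member called below. The motif searched was CAGGTG on either strand. It lay before at least 1 start in 7 of the 8 matched epithelial members and in 2 of the 13 matched mesenchymal members (ZEB1 and LOX), against 20.6% of all 27305 genes and 17.5% of all 35116 starts of the table. CRB3, which encodes a polarity protein of the apical membrane, held 5, the most of the matched members. DSP, the desmosomal linker to keratin filaments, held 2. The windows of CDH2 (1 of its 2 listed starts is printed, and neither had a match) and of VIM held 0, and they are shown for contrast. The regions are chr19:6464021-6464270 for CRB3 and chr6:7541421-7541670 for DSP on the plus strand, chr18:28177131-28177380 for CDH2 on the minus strand and chr10:17227991-17228240 for VIM on the plus strand (GRCh38.p14). Each is printed 5′ to 3′ with E-boxes in capitals.
CRB3: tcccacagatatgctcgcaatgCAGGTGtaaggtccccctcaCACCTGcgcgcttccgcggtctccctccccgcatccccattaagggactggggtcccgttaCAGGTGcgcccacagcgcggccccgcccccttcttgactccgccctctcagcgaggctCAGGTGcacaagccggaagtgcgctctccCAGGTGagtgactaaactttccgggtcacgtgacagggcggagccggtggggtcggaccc
DSP: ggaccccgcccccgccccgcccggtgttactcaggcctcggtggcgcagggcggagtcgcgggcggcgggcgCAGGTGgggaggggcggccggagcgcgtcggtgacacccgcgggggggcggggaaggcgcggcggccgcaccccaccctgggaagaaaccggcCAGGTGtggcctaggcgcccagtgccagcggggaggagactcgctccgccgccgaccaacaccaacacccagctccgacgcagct
CDH2: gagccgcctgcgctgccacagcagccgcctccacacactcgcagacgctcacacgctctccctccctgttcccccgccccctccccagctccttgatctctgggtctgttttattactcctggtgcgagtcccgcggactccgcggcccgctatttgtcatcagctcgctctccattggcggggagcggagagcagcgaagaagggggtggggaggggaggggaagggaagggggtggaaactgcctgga
VIM: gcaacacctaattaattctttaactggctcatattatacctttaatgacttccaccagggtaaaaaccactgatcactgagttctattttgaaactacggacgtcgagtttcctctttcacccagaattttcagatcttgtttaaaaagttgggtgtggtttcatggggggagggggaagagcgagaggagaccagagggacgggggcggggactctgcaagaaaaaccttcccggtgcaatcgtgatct
A match is a description of letters in a window and does not show that a factor was bound.

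Most epithelial members were detected in control cells. A probe was counted as detected where the image software called it well above background. In Cy3, the dye of the control RNA, 14 of the 16 epithelial members were detected on all 6 arrays, and so were 12 of the 23 mesenchymal members, against 41.9% of all gene names on the array. MUC1 was detected on 2 of the arrays and RAB25 on 0. Of the mesenchymal members, 7 were detected on 0 arrays in either dye. These were FN1 (fibronectin), the repressors ZEB1 and ZEB2, the forkhead factor FOXC2, the fibrillar collagen genes COL1A2 and COL3A1, and the gelatinase MMP2. TWIST2 was detected in Cy5 on 2 miR-338-5p arrays, and SPARC on 1 array of each line and 1 in Cy3. Levels of these members were not measured by these probes. Of the cell type markers listed for comparison, 9 of 9 prostate luminal markers were detected in Cy3 on all arrays, and so was 1 of 4 basal markers (KRT15). KRT14 was detected on 1 array, and KRT5 and TP63 on 0. The call also took in 4 of the 4 leukocyte markers on the array, 4 of 5 neuroendocrine markers, 2 of 5 endothelial markers and 2 of 7 fibroblast markers, so it does not single out 1 cell type.

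**Figure D1:**
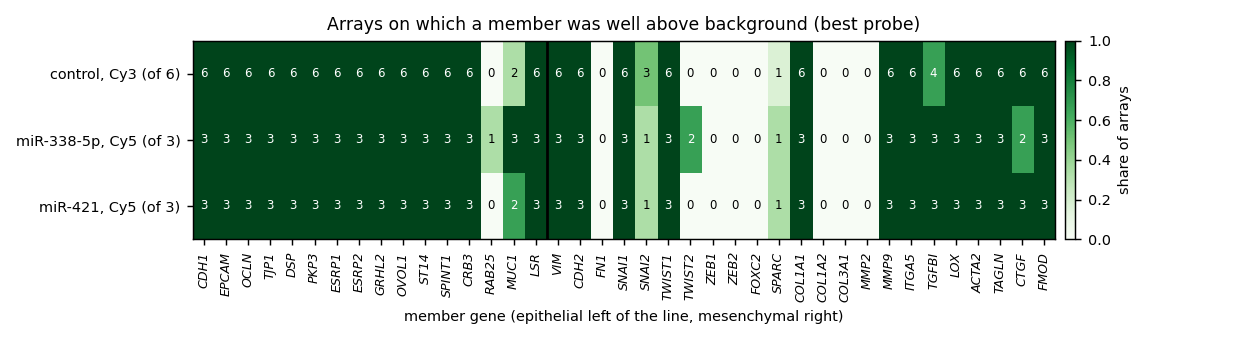
Number of arrays on which the best probe of each of the 39 members was well above background, with control cells in Cy3 (of 6 arrays) and each miRNA line in Cy5 (of 3). The empty columns among the mesenchymal members are FN1, ZEB1, ZEB2, FOXC2, COL1A2, COL3A1 and MMP2.

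Some of the tested members passed a test against control, in shares near those of the whole array. Values are log2 ratios of the miRNA line over control, so that 1 is a doubling and a negative value is a lower level in the miRNA line. Probes were tested where a minimum of 3 of the 6 arrays had them well above background in 1 dye or both, 27497 in all, of which 35 belonged to 29 members (15 epithelial and 14 mesenchymal). A call is an adjusted p under 0.05 in limma, adjusted over all tested probes. In the miR-338-5p line 4 of the 35 member probes passed (11.4%), against 8.98% of all tested probes. Of these 4, 2 were higher and 2 lower, against 3.78% and 5.20% of all probes. Under miR-421 9 of the 35 passed (25.7%), against 21.6% of all probes. Here 5 were higher and 4 lower, against 9.17% and 12.5%. Both shares lay near those of the whole array, so the counts single out no more members than any other probes. In the difference between the lines 0 of the 35 passed, against 0.0473% of all probes. At an unadjusted p under 0.05 the number was 12 of 35, against 13.7% of all probes. With limma's trended and robust variance 1 of 35 passed (FMOD), against 0.325% of all probes. In bulk RNA, fewer cells with a transcript and less of it in each cell cannot be told apart.

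The calls of the miR-338-5p line were the epithelial ESRP1 and GRHL2, which rose, and the mesenchymal CDH2 and SNAI1, which fell. Under miR-421 each class had calls in both directions. The epithelial ESRP1 and ST14 rose and EPCAM and OVOL1 fell, while the mesenchymal ITGA5, ACTA2 and FMOD rose and VIM and CDH2 fell. The median over the tested epithelial members, with 1 probe a gene, was 0.24 in the miR-338-5p line and 0.05 in the miR-421 line. Over the tested mesenchymal members it was 0.02 and 0.06, against -0.00 and 0.01 over all tested genes. The miR-338-5p epithelial median moved between 0.05 with median centring of each array and 0.36 with plain background subtraction.

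**Figure D2:**
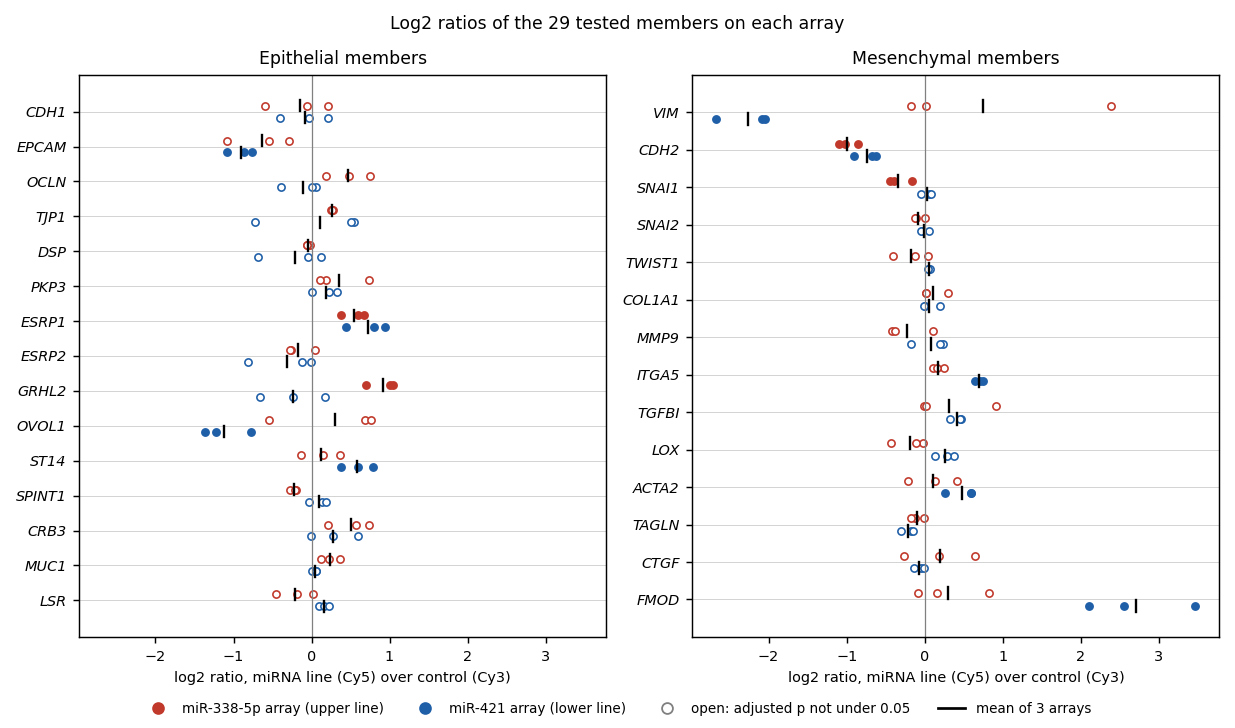
Log2 ratio of the miRNA line over control on each of the 6 arrays for the 29 tested members, 1 probe a gene, with filled points where the group passed the threshold and a black bar at the mean of 3 arrays. VIM and FMOD lie furthest from 0 in the miR-421 line, and the lone miR-338-5p point of VIM at 2.39 is replicate 2.

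CDH1 encodes E-cadherin, the adhesion molecule of adherens junctions, and was not shown to differ from control in either line. Its probe (NM_004360) lies on chromosome 16 at 68869214 to 68869273, plus strand, in hg19, the build of the array's coordinates. The log2 ratio was 0.21, -0.59 and -0.06 in miR-338-5p replicates 1, 2 and 3, and -0.03, -0.41 and 0.21 in the miR-421 pool and replicates 1 and 2. Values lay on both sides of 0 in both lines and the groups overlapped. The mean was -0.15 ± 0.41 (SD, n = 3; adjusted p 0.66 in limma) for miR-338-5p and -0.08 ± 0.31 (SD, n = 3; adjusted p 0.79 in limma) for miR-421. Leaving out 1 array turned the sign in either line, to 0.08 without miR-338-5p replicate 2 and to 0.09 without miR-421 replicate 1.

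EPCAM, a surface adhesion molecule of simple epithelia, fell in the miR-421 line (NM_002354, chromosome 2, 47613894 to 47613953, plus strand). Its log2 ratio was -0.29, -0.55 and -1.08 in miR-338-5p replicates 1, 2 and 3. The miR-421 pool had -0.76, and replicates 1 and 2 had -0.86 and -1.08. All 6 values were below 0, and the groups overlapped. The miR-421 mean of -0.90 ± 0.17 (SD, n = 3) passed with a limma adjusted p of 0.015, but without miR-421 replicate 2 it did not (-0.81, adjusted p 0.085). For miR-338-5p the mean was -0.64 ± 0.40 (SD, n = 3; adjusted p 0.055 in limma). The miR-421 mean corresponds to 53.6% of control.

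Among the other junction and polarity members none passed against control with the processing used here. OCLN, the tight junction protein occludin, read 0.48, 0.75 and 0.18 in the miR-338-5p replicates and 0.06, -0.39 and 0.01 in the miR-421 pool and replicates 1 and 2. The groups did not overlap, and its 2 probes had adjusted p of 0.084 and 0.073 for miR-338-5p in limma. CRB3 was above control on all 3 miR-338-5p arrays, with a mean of 0.50 ± 0.27 (SD, n = 3; adjusted p 0.084 in limma), and was 0.28 ± 0.31 for miR-421. TJP1, the tight junction scaffold ZO-1, had nearly the same value on each miR-338-5p array (0.27, 0.25 and 0.26; adjusted p 0.56 in limma) and ranged from -0.72 to 0.54 on the miR-421 arrays. Both groups share 1 estimate of the spread, so that adjusted p also reflects the miR-421 arrays. Without miR-421 replicate 1, which read -0.72, TJP1 passed in both lines and OCLN passed under miR-338-5p. Means of the desmosomal PKP3, the tricellular junction protein LSR and the mucin MUC1 lay between -0.21 and 0.35 over both lines, by the brighter MUC1 probe. With the trended and robust variance OCLN and MUC1 passed under miR-338-5p. MUC1 also passed there with background subtraction and with no background correction, and in both lines with the authors' table of ratios. The probes of DSP had means of -0.05 and -0.11 under miR-338-5p and of -0.21 and -0.37 under miR-421, where the smaller of the limma adjusted p was 0.078.

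ESRP1 encodes an epithelial splicing factor and was the only member that rose in both lines (NM_017697, chromosome 8, 95680359 to 95680418, plus strand). Its log2 ratio was 0.59, 0.38 and 0.67 in miR-338-5p replicates 1, 2 and 3, and 0.80, 0.44 and 0.94 in the miR-421 pool and replicates 1 and 2. All 6 arrays were above 0. The means were 0.55 ± 0.15 (SD, n = 3; adjusted p 0.038 in limma) and 0.73 ± 0.26 (SD, n = 3; adjusted p 0.011 in limma). Both comparisons are against pLemiR-RFP control cells and may share 1 control culture, so they may not be independent. The miR-338-5p call was lost without any 1 of its 3 arrays (adjusted p 0.0828 to 0.147), without the miR-421 pool (0.0725) and without miR-421 replicate 2 (0.0616). It was also lost with the miR-338-5p arrays fitted alone (limma adjusted p 0.061) and with no filter on dim probes (0.0661). The miR-421 call was lost without its replicate 2 (adjusted p 0.0673), and with median centring of each array neither passed (log2 ratios of 0.34 and 0.60). Its paralogue ESRP2 had means of -0.17 and -0.32, with adjusted p of 0.58 and 0.21 in limma.

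GRHL2, a grainyhead factor that activates CDH1 and other junction genes, rose in the miR-338-5p line by 1 of its 2 probes (NM_024915, chromosome 8, 102681572 to 102681631, plus strand). That probe read 0.70, 1.05 and 1.01 on the miR-338-5p arrays and 0.17, -0.66 and -0.24 in the miR-421 pool and replicates 1 and 2. The groups did not overlap. The means were 0.92 ± 0.19 (SD, n = 3; adjusted p 0.028 in limma) and -0.24 ± 0.42 (SD, n = 3; adjusted p 0.32 in limma), and their difference of 1.16 had an adjusted p of 0.14. The dimmer probe disagreed in size, with means of 0.10 and -0.08 and net brightness of 8.27 to 20.3 in either dye. The call was lost without any 1 of the miR-338-5p arrays (adjusted p 0.0687 to 0.113) and without miR-421 replicate 2 (0.065), and with median centring (0.14). It was also lost with the miR-338-5p arrays fitted alone (limma adjusted p 0.0502) and with no filter on dim probes (0.0528).

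OVOL1, a zinc finger repressor that keeps epithelial cells from a mesenchymal state, fell in the miR-421 line (NM_004561, chromosome 11, 65564519 to 65564578, plus strand). The pool read -1.37 and replicates 1 and 2 read -0.77 and -1.22. The mean was -1.12 ± 0.31 (SD, n = 3; adjusted p 0.035 in limma), which is 46.0% of control. In miR-338-5p replicates 1 and 2 it read 0.69 and 0.76, and in replicate 3 it read -0.54. The groups did not overlap, yet the difference of 1.42 did not pass (limma adjusted p 0.21). Without 1 of the miR-421 arrays the adjusted p was between 0.0671 and 0.147, and without miR-338-5p replicate 1 it was 0.0523. The miR-421 call was also lost with no filter on dim probes.

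ST14 encodes matriptase, a membrane serine protease of epithelia that activates growth factor precursors, and it rose in the miR-421 line (NM_021978, chromosome 11, 130079815 to 130079874, plus strand). It read 0.59, 0.38 and 0.79 in the miR-421 pool and replicates 1 and 2, and -0.14, 0.15 and 0.36 in miR-338-5p replicates 1, 2 and 3. The miR-421 arrays lay above the miR-338-5p arrays. The miR-421 mean was 0.58 ± 0.21 (SD, n = 3; adjusted p 0.023 in limma), and the miR-338-5p mean was 0.12 ± 0.25 (SD, n = 3; adjusted p 0.57 in limma). The call was lost without the pool (adjusted p 0.0766), without replicate 2 (0.112) and with median centring (0.178). SPINT1, the matriptase inhibitor HAI-1, read -0.20, -0.28 and -0.21 on the miR-338-5p arrays and -0.03, 0.14 and 0.18 in the miR-421 pool and replicates 1 and 2. Neither SPINT1 mean passed (limma adjusted p 0.069 and 0.29), and the difference of -0.33 had an adjusted p of 0.21.

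VIM encodes vimentin, the intermediate filament of mesenchymal cells, and had the largest fall among the tested members in the miR-421 line (NM_003380, chromosome 10, 17278347 to 17279256, plus strand, an interval longer than the 60 bases of the probe). The net brightness, which is the spot less its local background, was 524 to 896 in control RNA over the 6 arrays. The miR-421 pool had 130, replicate 1 had 42.0 and replicate 2 had 73.2. The log2 ratios were -2.05, -2.08 and -2.67, with the mean at -2.27 ± 0.35 (SD, n = 3; adjusted p 0.027 in limma), or 20.8% of control. In the miR-338-5p line they were 0.02, 2.39 and -0.17 in replicates 1, 2 and 3, so that replicate 2 alone was high, with a net Cy5 brightness of 4020 beside 864 in Cy3. The miR-338-5p mean was 0.75 ± 1.42 (SD, n = 3; adjusted p 0.39 in limma) and -0.07 without replicate 2. The groups did not overlap, and the difference of 3.02 did not pass (limma adjusted p 0.18). The miR-421 call was lost without any 1 of its arrays (adjusted p 0.0779 to 0.128), and also with no filter on dim probes.

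CDH2 encodes N-cadherin, which many carcinomas gain as they lose E-cadherin, and it fell in both lines (NM_001792, chromosome 18, 25530936 to 25530995, minus strand). The log2 ratio was -0.86, -1.10 and -1.02 in miR-338-5p replicates 1, 2 and 3, and -0.68, -0.62 and -0.91 in the miR-421 pool and replicates 1 and 2. All 6 values were below 0, and the groups overlapped. The means were -0.99 ± 0.12 (SD, n = 3; adjusted p 0.0058 in limma), or 50.3% of control, and -0.74 ± 0.15 (SD, n = 3; adjusted p 0.0056 in limma), or 59.9% of control. Both calls held in each of the 18 alternatives, with values of -1.62 to -0.59 and of -1.18 to -0.45. Their difference of -0.25 had a limma adjusted p of 0.40. A second CDH2 probe was dim, with a net Cy3 brightness of 12.6 to 19.3, and was detected in Cy5 on 1 miR-338-5p array and on 0 miR-421 arrays. It read -0.18 and -0.17 (limma adjusted p 0.063 and 0.051), and neither passed. Without detection in Cy5 its miR-421 ratio gives no reliable fold.

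**Figure D3:**
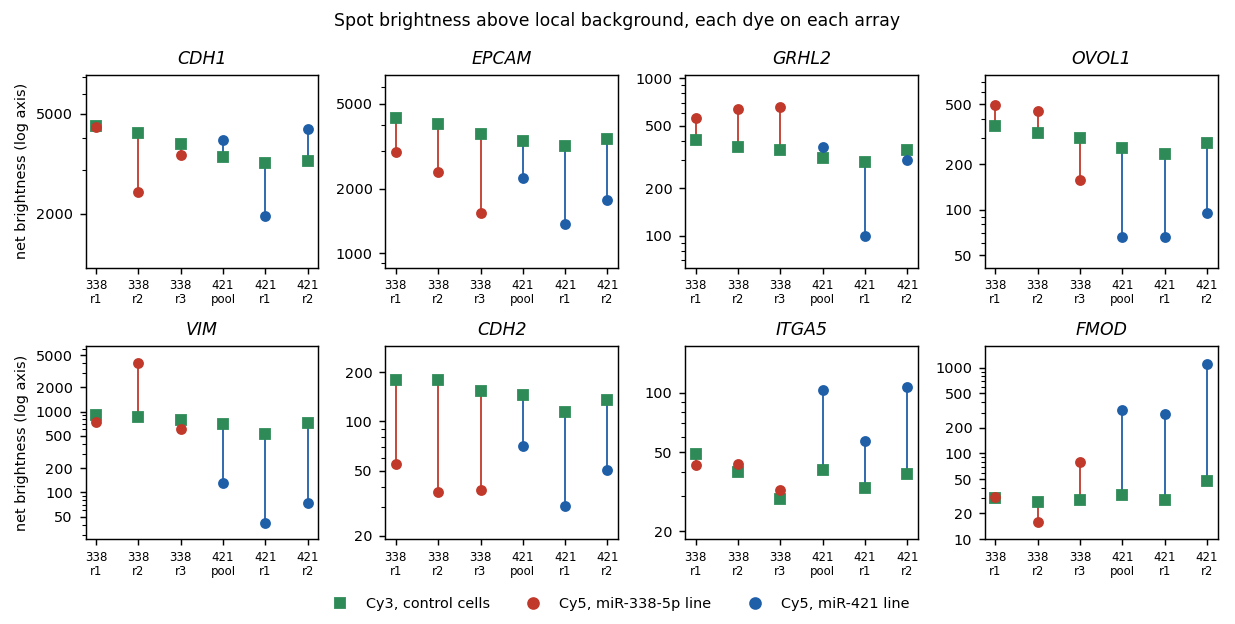
Spot brightness above local background on a log axis, with control RNA in Cy3 (squares) and the miRNA line in Cy5 (circles) on each array, before dye normalization, for 8 members. Each panel has its own axis. VIM in control cells lies between 524 and 896 on the 6 arrays, against 42.0 to 130 in the miR-421 line.

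The repressors of the epithelial program were either dim or close to control. SNAI1 (snail) fell in the miR-338-5p line (NM_005985, chromosome 20, 48605170 to 48605229, plus strand). It read -0.45, -0.39 and -0.16 on the miR-338-5p arrays (mean -0.34 ± 0.15, SD, n = 3; limma adjusted p 0.043) and 0.06, -0.05 and 0.08 in the miR-421 pool and replicates 1 and 2. The groups did not overlap, and the difference of -0.37 did not pass (limma adjusted p 0.22). Its signal was dim, with a net brightness of 34.0 to 52.9 in control RNA, and the fold depends on the background correction. The value ranged from -1.06 with the image software's own ratio to -0.28 without replicate 1, and it passed in neither of these. It passed in 9 of 18 alternatives. The call was lost without any 1 of the miR-338-5p arrays (adjusted p 0.0628 to 0.155) and without the miR-421 pool (0.0812) or replicate 2 (0.0867). It was also lost with median centring, with no filter on dim probes and with the group's own arrays alone.

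SNAI2 (slug) was detected in Cy3 on 3 arrays and in Cy5 on 1 array of each line. It read 0.00, -0.11 and -0.13 on the miR-338-5p arrays and 0.05, -0.03 and -0.05 in the miR-421 pool and replicates 1 and 2, with limma adjusted p of 0.41 and 0.90. TWIST1 by its brighter probe (NM_000474) read -0.13, -0.41 and 0.04, and 0.06, 0.07 and 0.04 in the same order, and neither mean passed (limma adjusted p 0.28 and 0.68). The other tested TWIST1 probe had means of -0.03 and -0.00. FN1, ZEB1 and ZEB2 were never above background, so their ratios carry no level. On miR-338-5p replicates 1, 2 and 3 and then the miR-421 pool and replicates 1 and 2, FN1 read 0.03, 0.10, 0.00, -0.01, -0.04 and -0.10. In the same order the ZEB1 probes read -0.03, 0.02, -0.05, -0.05, -0.10 and 0.09, and -0.00, 0.05, 0.04, -0.01, 0.02 and 0.07. The 3 probes of ZEB2 read 0.01, 0.04, -0.03, -0.01, -0.03 and 0.01, then 0.06, 0.08, 0.08, -0.01, 0.05 and 0.10, and last 0.00, -0.02, 0.00, 0.06, 0.08 and -0.04. None of these values was further from 0 than 0.10.

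ITGA5, the fibronectin-binding integrin chain, rose under miR-421 (NM_002205, chromosome 12, 54789656 to 54789715, minus strand). Its log2 ratio was 0.71, 0.65 and 0.75 in the miR-421 pool and replicates 1 and 2, averaging 0.70 ± 0.05 (SD, n = 3; adjusted p 0.0029 in limma), or 1.63-fold. On the miR-338-5p arrays it was 0.10, 0.25 and 0.16 (limma adjusted p 0.11), all below the miR-421 values. The difference of -0.53 had a limma adjusted p of 0.084. The miR-421 call held in each of the 18 alternatives, with values from 0.65 with median centring to 1.61 with the ratio of the image software.

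FMOD encodes fibromodulin, a small proteoglycan that binds collagen fibrils and TGF-beta, and had the largest rise among the members (NM_002023, chromosome 1, 203309815 to 203309874, minus strand). Net brightness in control RNA was 27.2 to 48.3 over the arrays. The miR-421 pool had 325, replicate 1 had 291 and replicate 2 had 1110. The log2 ratios were 2.10, 2.55 and 3.47, averaging 2.71 ± 0.70 (SD, n = 3; adjusted p 0.0054 in limma), against 0.16, -0.09 and 0.83 in miR-338-5p replicates 1, 2 and 3 (mean 0.30 ± 0.48, SD, n = 3; limma adjusted p 0.57). The groups did not overlap. The difference of -2.41 had a limma adjusted p of 0.12, and 0.0451 with the trended and robust variance. Over the alternatives the miR-421 value ran from 2.33 without replicate 2 to 4.16 with the ratio of the image software.

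ACTA2, the smooth muscle actin gene used as a marker of myofibroblasts, rose in the miR-421 line (NM_001613, chromosome 10, 90697899 to 90697958, minus strand). It read 0.26, 0.59 and 0.59 in the miR-421 pool and replicates 1 and 2, and 0.42, -0.22 and 0.13 on the miR-338-5p arrays. The miR-421 mean was 0.48 ± 0.19 (SD, n = 3; adjusted p 0.049 in limma), and the groups overlapped. The value was between 0.42 and 1.35 over the alternatives, the latter with the ratio of the image software, where it did not pass. The call held in 10 of 18 alternatives. It was lost without any 1 of the miR-421 arrays (adjusted p 0.0719 to 0.195), without miR-338-5p replicate 3 (0.0783) and with the replicate number as a random block (0.0512). It was also lost with median centring and with no filter on dim probes.

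The other tested mesenchymal members did not pass in either line. LOX, the enzyme that crosslinks collagen, was below 0 on each miR-338-5p array (-0.02, -0.43 and -0.11) and above 0 on each miR-421 array (0.37, 0.13 and 0.28 in the pool and replicates 1 and 2), and the difference of -0.44 had a limma adjusted p of 0.25. TGFBI, a matrix protein induced by TGF-beta, had means of 0.31 and 0.41, and TAGLN (transgelin) had means of -0.10 and -0.21 with a limma adjusted p of 0.056 for miR-421. MMP9 had means of -0.23 and 0.08, COL1A1 of 0.11 and 0.06, and CTGF, now named CCN2, of 0.19 and -0.07.

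Replicate 2 of miR-338-5p held the highest value of its group for 4 of the 15 tested epithelial and 4 of the 14 tested mesenchymal members, against 31.9% of all probes. It held the lowest for 7 and 7 of them, against 37.6%. The array was the highest of its group for VIM (2.39), TGFBI (0.91 beside -0.01 and 0.02), CTGF (0.65 beside 0.18 and -0.26) and the untested RAB25 (0.78 beside 0.03 and -0.03), a small GTPase of epithelial recycling. The same array was the lowest of its group for CDH1, TWIST1, LOX and ACTA2. On miR-421 replicate 1 the median of the 15 tested epithelial members was -0.39, while the pool and replicate 2 had medians of 0.06 and 0.18. It held the lowest value of its group for 10 of these 15 members, and for 44.3% of all tested probes. That array also had the smallest share of gene spots above background in Cy5, 41.9% against 46.8% to 48.3% on the others. The part of signal strength in the members' values was not tested.

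Among related genes the shares past the threshold were read against 9.23% of all tested genes in the miR-338-5p line and 22.7% in the miR-421 line, with 1 probe a gene. Of 11 tested adherens junction partners 1 passed in the miR-338-5p line and 4 in the miR-421 line. CTNNB1, the beta-catenin that links cadherins to the cell interior, fell by 0.43 as a log2 ratio under miR-421 (limma adjusted p 0.041). The nectin PVRL3 fell in both, by 0.38 and by 0.62, and P-cadherin (CDH3) rose by 0.55 in the miR-421 line. Of 6 tested desmosome genes 0 passed in either line. Of 14 tight junction and polarity genes 1 passed under miR-338-5p, the cingulin gene CGN, which fell by 0.62. Under miR-421 4 of the 14 passed, among them PARD3, which rose by 0.69, and INADL, which fell by 0.49.

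Of 11 tested epithelial transcription and splicing factors 1 passed in the miR-338-5p line, GRHL1, which rose by 0.64 ± 0.29 as a log2 ratio (SD, n = 3; adjusted p 0.033 in limma). Under miR-421 5 of the 11 passed, 4 of them higher. SPDEF, a prostate epithelial ETS factor, rose by 0.98 ± 0.28 (SD, n = 3; adjusted p 0.01 in limma), KLF4 rose by 0.91 and the ETS factor EHF fell by 0.81. Of the 10 matriptase pathway genes 0 passed in the miR-338-5p line, and 2 did under miR-421. HPN, the protease hepsin, rose by 0.68. HGF, the scatter factor ligand of MET, fell by 3.61 ± 0.03 as a log2 ratio (SD, n = 3; adjusted p 0.024 in limma). Its p-value uses a spread shared by both groups, so it does not rest on that SD alone. The brightness of HGF is not reported here, so the precision of this fall is not shown.

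Of 13 tested TGF-beta and activin signalling genes 1 passed, SMAD4, the common mediator of the pathway, which fell by 1.08 ± 0.73 under miR-421 (SD, n = 3; adjusted p 0.034 in limma). Of 10 tested TGF-beta target genes 2 passed in each line. ID3 rose in both, by 0.69 and by 0.61, TGFB1I1 fell by 0.30 under miR-338-5p and PMEPA1 rose by 1.23 under miR-421. Of 17 tested matrix and small proteoglycan genes 2 passed in the miR-338-5p line, and 7 did under miR-421. COL6A1 rose by 1.45 ± 0.68 in the miR-338-5p line (SD, n = 3; adjusted p 0.024 in limma). Under miR-421 TNC (tenascin C) fell by 0.95 and PLOD2 fell by 0.79.

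Lumican (LUM), a small proteoglycan like FMOD, rose by 2.14 ± 0.73 in the miR-421 line (SD, n = 3; adjusted p 0.044 in limma). It was also above control in miR-338-5p replicates 1 and 2 (1.88 and 1.80) and below it in replicate 3 (-0.77). The miR-338-5p mean of 0.97 did not pass (limma adjusted p 0.33). LUM is also 1 of the 7 fibroblast markers listed. Over the 10 probes of these markers the summed net brightness was 136 to 189 in control RNA, 29.3 to 435 in the miR-338-5p line and 229 to 1300 in the miR-421 line. LUM alone gave 163 to 812 of the miR-421 signal. DCN (decorin), a further small proteoglycan on the list, was detected in Cy5 on all 3 miR-421 arrays with a mean of 1.13 (limma adjusted p 0.098), and on 2 miR-338-5p arrays with a mean of -0.06 (0.95). PDGFRB had means of -0.02 and -0.01 (limma adjusted p 0.82 and 0.95). The markers PDGFRA, THY1, COL6A3 and FAP were above background on 0 arrays in either dye. The part of fibroblast transcripts in the FMOD value was not tested.

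Of 11 tested integrin genes besides ITGA5, 0 passed in the miR-338-5p line, and 1 did under miR-421 (ITGA6, which fell by 0.40). Of 6 tested matrix protease genes and inhibitors 1 passed in each line, MMP15 (fell by 0.72) under miR-338-5p and MMP1 (fell by 0.31) under miR-421. Of 9 tested contractile and intermediate filament genes 2 passed under miR-338-5p, TPM1 (rose by 0.63) and nestin (NES, fell by 0.74). Under miR-421 1 of the 9 passed, TAGLN2, which rose by 1.09 ± 0.25 (SD, n = 3; adjusted p 0.022 in limma). Of 12 tested mesenchymal receptors and transcription factors 2 passed in each line. TCF3 fell in both, by 0.55 and by 0.52, and HMGA2 rose by 0.77 under miR-421. The 6 names searched for the miR-200 family, whose miRNAs target ZEB1 and ZEB2, had 0 probes. They include the host gene MIR200CHG.

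Of the 13 calls of members against control, 4 held in each of the 18 alternatives tried, and these were CDH2 in both lines and ITGA5 and FMOD in the miR-421 line. EPCAM under miR-421 held in 17, ESRP1 in 16 and ST14 in 15. VIM held in 14, OVOL1 in 13 and ACTA2 in 10. In the miR-338-5p line GRHL2 held in 11, ESRP1 in 10 and SNAI1 in 9.

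**Figure D4:**
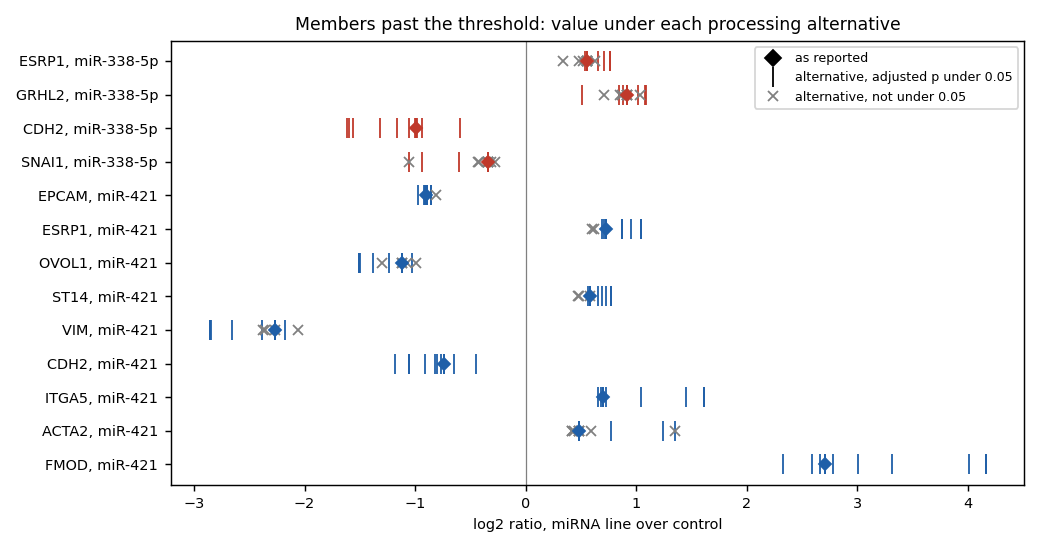
Log2 ratio over control of each of the 13 member calls as reported (diamond) and under each of 18 alternatives of processing, including each array left out, with grey crosses where the adjusted p was not under 0.05. CDH2 in both lines and ITGA5 and FMOD in the miR-421 line have no cross.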

How the data were processed

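The members and all gene lists were chosen with earlier results of these data known. The 6 arrays share 1 slide and were read by the authors in Feature Extraction 11.5.1.1, per the file headers. Deposited intensity values are spot means and local background medians of each dye, not normalized. The deposited log10 ratios of Cy5 over Cy3 were background-subtracted, detrended and dye-normalized by that software, per the file headers. The deposited whole-series table holds log2 ratios. For 14270 gene names with 1 tested probe it matched the scanner ratio within 0.01 in at least 99.5% of values, so scale and direction are known, while the treatment of names with several probes is not. Its array medians were -0.16 to 0.03.

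Per the labels, RNA was poly(A)-tailed and oligo-dT primed, and no dyes were swapped, so a probe's dye bias stays in its ratio. Background was corrected by normexp (offset 50, which shrinks ratios of dim probes) and arrays were normalized by loess in limma 3.58.1 (R 4.3.3). Control spots had no weight, outlier spots were left out and spots of a probe were averaged. All 6 arrays entered 1 fit with a mean per group, eBayes and Benjamini-Hochberg adjustment, two-sided. The fit was tested on simulated data.

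A member got all 6 values where a probe passed with 1 sign on its 3 arrays, or in the difference, and CDH1, EPCAM, VIM, CDH2, FN1, ZEB1, ZEB2, SNAI1, SNAI2 and TWIST1 always did. Other members with such values (OCLN, TJP1, SPINT1, LOX) were chosen after their values were seen. A gene was represented by its tested probe with the highest mean log2 intensity. Related lists name up to 2 rises and 2 falls each. Some genes of these lists that passed are not reported here. Of the 52 member probes 50 had an accession in the reference gene table, used for names. The other 2, named TWIST1, carried a predicted noncoding accession. Exon and UTR annotation was not used here. The number of arrays limits the precision.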

Additional observations from a re-analysis of the deposited data

Results flagged for a closer look

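LOX drew attention because its ratio was below 0 on every array of one line and above 0 on every array of the other. The share of all tested probes with such a pattern was not counted. LOX was dim, with a net brightness of 28.5 to 39.6 in control RNA, and its value of -0.02 is close to 0. On the miR-338-5p arrays its log2 ratio was -0.02, -0.43 and -0.11. On the miR-421 arrays it was 0.37, 0.13 and 0.28, and the difference between the lines was -0.44. That difference was tested and did not pass (limma adjusted p 0.247).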

How the results depend on the processing

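The number of member probes past the threshold was 4 in the miR-338-5p line. It became 1 with median centring of each array, 2 with no filter on dim probes, 1 with the group's own 3 arrays alone and 9 with the trended and robust variance, and leaving out 1 array gave 1 to 6. In the miR-421 line the number was 9, and leaving out 1 array gave 3 (without replicate 2) to 10, with 5 without the pool. In the difference it was 0 under each alternative except 1 with the trended and robust variance. Of all calls in the miR-338-5p line 42.1% were higher, against 18.0% with median centring and 54.1% to 55.7% with background subtraction, the software's own ratio or the authors' table.

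The epithelial median for miR-338-5p, 0.24, became 0.36 with background subtraction, 0.33 with no correction, 0.05 with median centring, 0.35 both with the scanner ratio (that of the image software) and with the authors' table, and 0.19 where both dyes had to be above background on all arrays, and it was 0.11 to 0.25 leaving out 1 array. The mesenchymal median for miR-338-5p, 0.02, became -0.16 with the scanner ratio, -0.20 with the authors' table and -0.10 with both dyes above background, and -0.07 to 0.02 leaving out 1 array. For miR-421 the mesenchymal median, 0.06, became 0.20 with background subtraction, 0.08 with no correction, 0.01 with median centring, 0.22 with the scanner ratio and 0.19 with the authors' table, and 0.04 to 0.06 leaving out 1 array. The cause of these shifts was not tested.

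A value that turned sign was ST14 under miR-338-5p with median centring (-0.09). Leaving out 1 array turned others, with ranges of -0.33 to 0.08 for CDH1 under miR-338-5p, -0.22 to 0.09 under miR-421 and -0.25 to 0.15 in the difference, -0.07 to 1.20 for VIM and -0.04 to 0.27 for ACTA2 under miR-338-5p, and -0.04 to 0.01 for SNAI2 under miR-421. None of these passed. Some dim members changed by more than 1.5 times. With background subtraction and with the scanner ratio, which differs in several steps, ITGA5 under miR-421 (0.70) became 1.45 and 1.61, ACTA2 (0.48) became 1.24 and 1.35, and FMOD (2.71) became 4.01 and 4.16.

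The samples were not treated as pairs by replicate number. Same-numbered arrays correlated at -0.140 (number 1) and -0.211 (number 2) in their deviations from the group mean. The other pairs of arrays correlated at -0.153 to 0.197. With 3 arrays a group, these values cannot show whether samples were handled in pairs. With the replicate block as a random term (consensus correlation -0.297) the numbers were 4, 10 and 0, and with it as a fixed term on the 4 arrays numbered 1 and 2 the difference had 0. SNAI2 had no value where both dyes had to be above background. All arrays share 1 slide, so slide could not be tested as a batch.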

Other observations

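The 10 members without a tested probe were given a value by dropping the filter on dim probes. In that fit RAB25 had a log2 ratio of 0.26 under miR-338-5p (limma adjusted p 0.492), which rests on replicate 2. The other 9 had values between -0.05 and 0.08 in both lines, with the smallest adjusted p, 0.168, for a TWIST2 probe under miR-421. Probes this dim carry no reliable ratio.

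Of the 4 probes named TWIST1 on the array, 2 carry the accession of a predicted noncoding RNA and lie near position 19039592 of chromosome 7 (hg19), apart from the coding transcript's probes near 19155645. They were above background on 0 arrays in either dye.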
